A study of Mus musculus with 26 samples.

Results

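Proneural and neurogenic factors are the regulators that carry cortical progenitors from self-renewal to neuron production, and 10 of them (Pax6, Sox2, Neurog1, Neurog2, Eomes, Insm1, Btg2, Gadd45g, Neurod1 and Neurod6) were followed by gene symbol across the 30406 genes that every cortex library listed. Single-nucleus RNA-seq (10x Genomics 3′ chemistry) was performed on the prospective primary somatosensory cortex of male mouse embryos at E15.5, 3 days after their dams received an injection of saline or of poly(I:C), a double-stranded RNA mimic that triggers maternal immune activation (MIA), at E12.5. Embryos were wild type or Csf1r-null littermates on the C57Bl/6N background. The null embryos lack the receptor that microglia need to survive, and they lack it constitutively, in every tissue. There were 4 groups of 2 libraries each (wild-type saline, wild-type MIA, Csf1r-null saline and Csf1r-null MIA), drawn from 2 or 3 embryos per condition and 4 dams in all. The sources used here do not tie a library to a dam, so p-values measure the spread between these libraries only.

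In the developing neocortex, apical progenitors (radial glia) line the ventricle and hold a stem-like state that depends on the HMG-box factor Sox2 and the paired-homeodomain factor Pax6. Proneural basic helix-loop-helix (bHLH) factors of the Neurogenin family start neuronal differentiation, and many of their daughter cells become intermediate progenitors, which express the T-box factor Eomes (also called Tbr2) and divide once or a few times to give neurons. Insm1, a zinc-finger repressor, promotes the formation of these basal progenitors. Btg2 (also called Tis21) is an antiproliferative protein of progenitors that undergo neurogenic divisions, and Gadd45g is a small stress- and differentiation-induced protein that slows the cell cycle. The bHLH factors Neurod1 and Neurod6 then act in newborn and maturing excitatory neurons.

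All 10 genes are compact except Pax6, which spans chr2:105668900-105697364 (GRCm38, GENCODE M21). Sox2 (chr3:34650405-34652461), Neurog1 (chr13:56250478-56252163) and Insm1 (chr2:146221921-146225020) have 1 exon each. Sox2 lies within Sox2ot on the same strand and Neurod1 (chr2:79452521-79456751) overlaps Cerkl on the same strand, so reads in the shared stretches could be assigned to either and those 2 genes' levels are uncertain to that extent. Pax6, Eomes and Neurod1 also overlap an annotated gene on the opposite strand (Pax6os1, Gm33460 and Gm26755). RefSeq promoter sequence was at hand for 9 of the 10 members and was searched for the bHLH recognition core, the E-box CANNTG, in the 250 bases before each start. At least 1 E-box was found in 4 of the 9 members, against 66.2% of 32851 mouse promoters of the same length. The form CAGATG or CATCTG was found in 0 of the 9, against 14.4% of promoters. After the sequences had been read, the last 50 bases before the start were also searched on the gene's strand for TATAAA or TATATA, which was found in 4 of the 9 members, against 3.67% of promoters. No match means only that these letters are not in this window. Those 4 promoters are shown, 5′ to 3′ on the gene's strand with E-boxes and the TATA match in capitals, because the match lay at a similar distance from the start in each. Neurog2 is read from chr3:127632886-127633135 on the plus strand, Eomes from chr9:118477939-118478188 on the plus strand, Gadd45g from chr13:51846425-51846674 on the plus strand and Neurod1 from chr2:79456637-79456886 on the minus strand, all in GRCm38.p6.
Neurog2: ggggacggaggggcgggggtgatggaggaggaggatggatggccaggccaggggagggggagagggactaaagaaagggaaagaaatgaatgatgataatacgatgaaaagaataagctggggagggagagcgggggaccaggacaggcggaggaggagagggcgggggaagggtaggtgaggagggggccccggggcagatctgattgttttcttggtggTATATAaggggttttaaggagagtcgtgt
Eomes: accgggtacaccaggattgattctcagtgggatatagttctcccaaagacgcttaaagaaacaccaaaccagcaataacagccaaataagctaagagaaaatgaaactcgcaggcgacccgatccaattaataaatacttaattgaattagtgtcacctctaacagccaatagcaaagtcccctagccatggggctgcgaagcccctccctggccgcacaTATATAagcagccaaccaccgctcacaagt
Gadd45g: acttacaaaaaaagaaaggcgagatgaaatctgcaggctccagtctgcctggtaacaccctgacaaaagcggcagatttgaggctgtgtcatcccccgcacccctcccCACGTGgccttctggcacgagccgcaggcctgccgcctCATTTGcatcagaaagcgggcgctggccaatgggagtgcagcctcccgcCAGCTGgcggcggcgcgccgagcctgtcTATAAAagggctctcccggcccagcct
Neurod1: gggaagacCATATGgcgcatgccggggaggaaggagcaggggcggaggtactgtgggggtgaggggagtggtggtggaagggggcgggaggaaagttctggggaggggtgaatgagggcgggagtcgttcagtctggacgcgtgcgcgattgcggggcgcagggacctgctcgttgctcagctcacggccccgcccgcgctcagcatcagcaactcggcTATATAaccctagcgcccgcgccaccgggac
The TATA match began 29 bases before the start in Neurog2, 30 in Eomes, 27 in Gadd45g and 31 in Neurod1, counted from the RefSeq start. For Neurod1 that start lies inside the gene as GENCODE M21 gives it, so its match falls within the annotated gene. For Sox2 and Btg2 the RefSeq start lies more than 31 bases before the gene as GENCODE M21 gives it. For those genes these distances from the GENCODE start were not searched. The Gadd45g window held 3 E-boxes and the Neurod1 window held 1, whereas those of Neurog2 and Eomes held 0.

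After filters on depth and doublets, 41539 nuclei were kept, with 9897721 to 17605575 unique molecular identifiers (UMIs) per library before doublets were removed and a median of 1469 to 2953.5 UMIs per nucleus. Nuclei were clustered without the 10 members and named by markers, so that each name means "like" the class. The classes along the excitatory lineage were apical progenitors (AP, 3376 nuclei), dividing AP (2034), intermediate progenitors (IP, 2247), dividing IP (830), a cluster between migrating neurons and IP (MN/IP, 3512), migrating neurons (MN, 11403), callosal projection neurons with migrating neurons (CPN/MN, 3246), corticothalamic with subcerebral projection neurons (CThPN/SCPN, 6084) and corticothalamic projection neurons (CThPN, 5283). Outside the lineage, interneurons (IN, 2244 nuclei) served as the level in cells that should lack most members. A pair of libraries went against its labels. The library labelled wild-type MIA 2 held 0 Csf1r UMIs and 47 UMIs of 12 microglial markers, against 11 to 23 and 274 to 491 in the other wild-type libraries. The library labelled Csf1r-null saline 2 held 10 Csf1r UMIs and 207 marker UMIs, against 1 to 4 and 60 to 94 in the other null libraries. Comparisons were therefore also made without both. A further library, wild-type saline 1, held 727 of the 853 nuclei of a class of striatal-like ventral neurons with interneurons, 16.1% of its nuclei against 0.156% to 0.775% in the others. Differences without it are given for MIA against saline of Eomes and Neurog1 in wild type and for Neurod6 between genotypes.

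From member to member, the class with the highest level changed from dividing AP through IP to neurons. Levels are CPM (counts of a gene per 1000000 UMIs) summed over a class in a library and given as mean ± SD over the 8 libraries. They are compared within a gene across classes, not between genes, and carry no test, because classes are clusters of the same nuclei. Among the 9 lineage classes and IN, the highest class of each member lay above the second in 8 of 8 libraries.

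**Figure D1:**
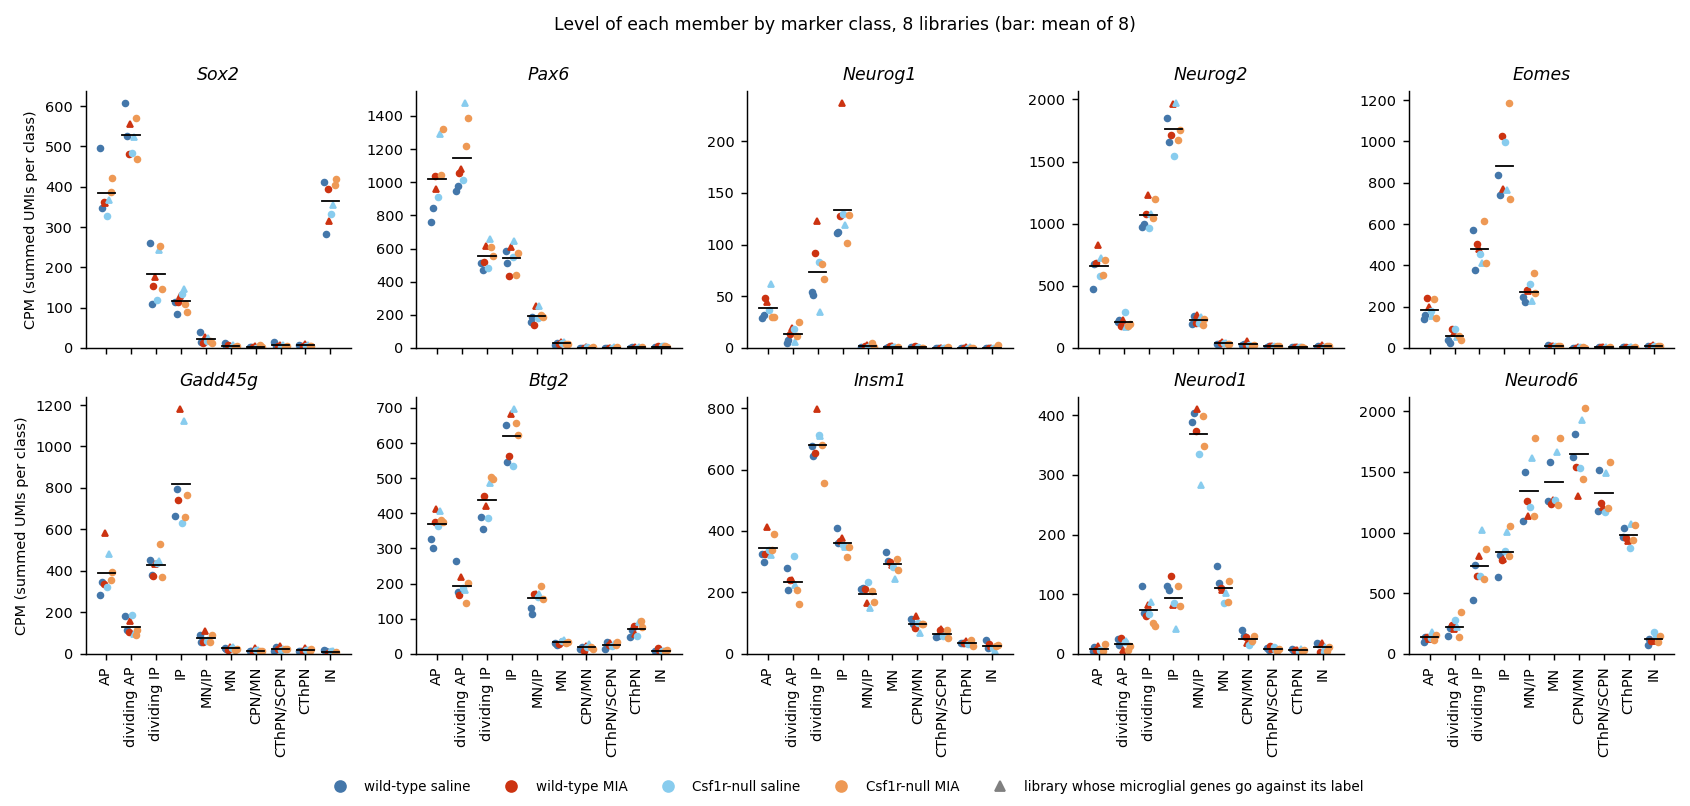
Level of each member in CPM on linear axes from 0, in the classes of the excitatory lineage and in IN (points, 8 libraries colored by group; triangles, the 2 libraries whose microglial genes go against their labels; bars, mean of 8). Pax6 and Sox2 stand highest in dividing AP, Neurog1, Neurog2, Eomes, Btg2 and Gadd45g in IP, Insm1 in dividing IP, Neurod1 in MN/IP and Neurod6 in CPN/MN.

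The progenitor factors fell stepwise as nuclei left the apical state. Pax6 stood at 1145 ± 197 CPM in dividing AP (lowest library 947, median 1069, highest 1479) and at 1021 ± 200 CPM in AP, a ratio of 1.12. It was at 553 ± 68.5 CPM in dividing IP and 544 ± 75.4 CPM in IP, values that differed by less than their spread. MN/IP still held 194 ± 40.5 CPM of Pax6, while IN held 8.23 CPM. Sox2 stood at 527 ± 48.7 CPM in dividing AP (469, 524 and 608) and at 384 ± 53.3 CPM in AP, and dropped more steeply than Pax6, to 115 ± 21.2 CPM in IP and 21.2 ± 9.47 CPM in MN/IP. Sox2 was also high in IN, at 364 ± 50.7 CPM, which differed from AP by less than the SD of either class. A small class of dividing interneurons and progenitors (201 nuclei) held 662 CPM of Sox2 in the library wild-type saline 1, which gave 194 of its nuclei, above the 608 CPM of dividing AP there. The class of striatal-like ventral neurons with interneurons held 516 ± 221 CPM and lay above dividing AP in 3 of 8 libraries. In wild-type saline 1, with 766 Sox2 UMIs, it lay below dividing AP (500 against 608 CPM), and each other library rests on 7 to 18 UMIs.

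The Neurogenins peaked in IP and were already present in AP. Neurog2, the main proneural factor of the dorsal cortex, reached 1765 ± 152 CPM in IP (1545, 1731 and 1972 CPM), 1070 ± 101 CPM in dividing IP and 658 ± 108 CPM in AP, with no overlap between these 3 classes. Dividing AP as a whole held 210 ± 39.9 CPM of Neurog2, below every AP library. Its 2 clusters differed, at 111 ± 24.4 CPM in the larger and 483 ± 79.3 CPM in the smaller (377 to 616), which overlapped with AP. MN/IP held 223 ± 31.4 CPM, which differed from dividing AP by less than the spread. Neurog1, its paralog, was at 133 ± 43.1 CPM in IP (102, 123 and 237 CPM), 73.1 ± 27.5 CPM in dividing IP, 39.0 ± 11.5 CPM in AP and 13.3 ± 7.23 CPM in dividing AP. Neurog1 had ended by MN/IP, with 13 UMIs among 6573230, whereas Neurog2 persisted at 38.1 CPM in MN.

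Eomes, the T-box factor of intermediate progenitors, followed Neurog2 closely but extended further into MN/IP. It stood at 880 ± 169 CPM in IP (719, 803 and 1186), 478 ± 81.6 CPM in dividing IP, 273 ± 46.8 CPM in MN/IP and 182 ± 39.6 CPM in AP. Dividing AP held 58.7 ± 24.9 CPM, the lowest Eomes level of the progenitor classes, and MN held 8.43 CPM, close to the 9.10 CPM of IN.

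Insm1, Btg2 and Gadd45g shared the progenitor peak but differed in where else they were found. Insm1 alone was highest in dividing IP, at 679 ± 68.6 CPM (558, 679 and 798), 1.89 times its level in IP (360 ± 27.2 CPM). AP held 344 ± 37.7 CPM and dividing AP 235 ± 47.6 CPM of Insm1. The 2 clusters of dividing AP differed, at 113 ± 20.6 CPM in the larger and 564 ± 90.9 CPM in the smaller. Insm1 was lower in MN/IP (195 ± 30.3 CPM) than in the later MN (291 ± 26.7 CPM), and then dropped to 97.3 CPM in CPN/MN and 35.6 CPM in CThPN. Btg2 was at 620 ± 64.3 CPM in IP (534, 637 and 698), 437 ± 56.9 CPM in dividing IP and 368 ± 37.1 CPM in AP, fell to 32.6 CPM in MN, and stood at 70.0 ± 17.4 CPM in CThPN. Gadd45g was at 821 ± 213 CPM in IP (630, 755 and 1182), 428 ± 52.9 CPM in dividing IP and 389 ± 98.7 CPM in AP. Outside the lineage, the small class of dividing interneurons and progenitors also held these 3 genes, with 685 CPM of Gadd45g, 442 CPM of Insm1 and 418 CPM of Btg2 in wild-type saline 1. Gadd45g was also found in Cajal-Retzius-like nuclei (137 nuclei), the early-born Reln-expressing neurons of the marginal zone, at 194 ± 44.1 CPM and in every library (142 to 260), against 10.1 CPM in IN. That class lies outside the ranked lineage, and its value rests on 8 to 20 UMIs per library.

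The NeuroD factors marked the neuronal side. Neurod1 was highest in MN/IP, at 368 ± 43.4 CPM (283, 381 and 411), 3.35 times the 110 ± 19.8 CPM of MN, the largest such step among the 10 members. IP held 94.4 ± 27.8 CPM, which overlapped with MN, and AP held 8.87 CPM, below the 11.1 CPM of IN. Neurod6, a factor of postmitotic excitatory neurons, was broad. It stood at 1650 ± 249 CPM in CPN/MN (1303, 1582 and 2024), 1413 ± 226 CPM in MN, 1341 ± 256 CPM in MN/IP, 1326 ± 172 CPM in CThPN/SCPN and 980 ± 69.3 CPM in CThPN. CPN/MN lay above MN within each library although their ranges overlapped, and MN, MN/IP and CThPN/SCPN differed by less than their spread. IP already held 838 ± 135 CPM of Neurod6. AP held 135 ± 24.7 CPM, close to the 124 ± 36.6 CPM of IN.

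Among the same classes, shares of nuclei with a UMI gave the same highest class as the levels for all 10 members, after every nucleus was thinned to 1000 UMIs and shallower nuclei were left out. Neurog2 was detected in 72.0% of IP nuclei (1304 of 1811, 95% Clopper-Pearson interval 69.9 to 74.1%, with 436 nuclei left out and 85.5% unthinned). It was detected in 29.6% of AP nuclei (27.9 to 31.4%, 785 left out, 36.0% unthinned) and in 1.03% of IN nuclei (309 left out, 2.32% unthinned). Eomes was detected in 54.4% of IP nuclei, 20.5% of MN/IP nuclei, 11.4% of AP nuclei, 4.11% of dividing AP nuclei and 0.930% of IN nuclei. Neurod6 was detected in 78.3% of CPN/MN nuclei and 50.5% of IP nuclei, and its 10.9% in AP was close to the 10.3% in IN, so that the AP share was not above background. The same held for Neurod1 in AP (0.926%, against 1.24% in IN), whereas 28.9% of MN/IP nuclei held a Neurod1 UMI. Median depths before thinning were 1478 UMIs in AP, 1608 in IP, 1674.5 in MN/IP, 2319 in CPN/MN and 1766 in IN. These intervals cover counting error only.

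In AP, dividing AP, IP and MN/IP, Eomes was detected more often in nuclei that held Neurog2. At 1000 UMIs, 28.9% of the 768 AP nuclei with a Neurog2 UMI also held an Eomes UMI, against 4.06% of AP nuclei without one, higher in 8 of 8 libraries. The shares were 11.6% and 2.86% in dividing AP and 33.6% and 17.9% in MN/IP, also higher in 8 of 8 libraries. In IP, where both genes were common, they were closer, at 57.0% and 47.9% (8 of 8 libraries). In dividing IP the shares were 34.9% and 31.9%, higher in only 5 of 8 libraries. Pax6 did not separate AP nuclei in this way, since 11.1% of those with and 11.9% of those without a Pax6 UMI held Eomes (higher in 3 of 8 libraries). In MN/IP the late progenitor factors were found together, with Neurog2 in 27.7% of nuclei with Pax6 and 14.9% of those without (8 of 8 libraries). Eomes and Neurod1 did not show this in MN/IP, as 27.9% of nuclei with Eomes and 29.2% of the others held Neurod1. These shares are descriptions, and the nuclei of a class share libraries and free RNA.

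To order the members, the 38015 nuclei of the excitatory lineage were ranked from progenitor to neuron by 24 other genes, 12 for each side, and divided into 20 bins of equal size. A member's position is the mean of the bin positions weighted by its level, as a percent of the way along the ranked nuclei. AP was the largest class in bins 1 to 3, IP in bin 4 (63.9% of nuclei), MN/IP in bins 5 and 6, MN in bins 7 to 13 and corticofugal neurons (CThPN/SCPN, then CThPN) in bins 14 to 20. The 12 genes of the progenitor side are also the markers that named AP.

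**Figure D2:**
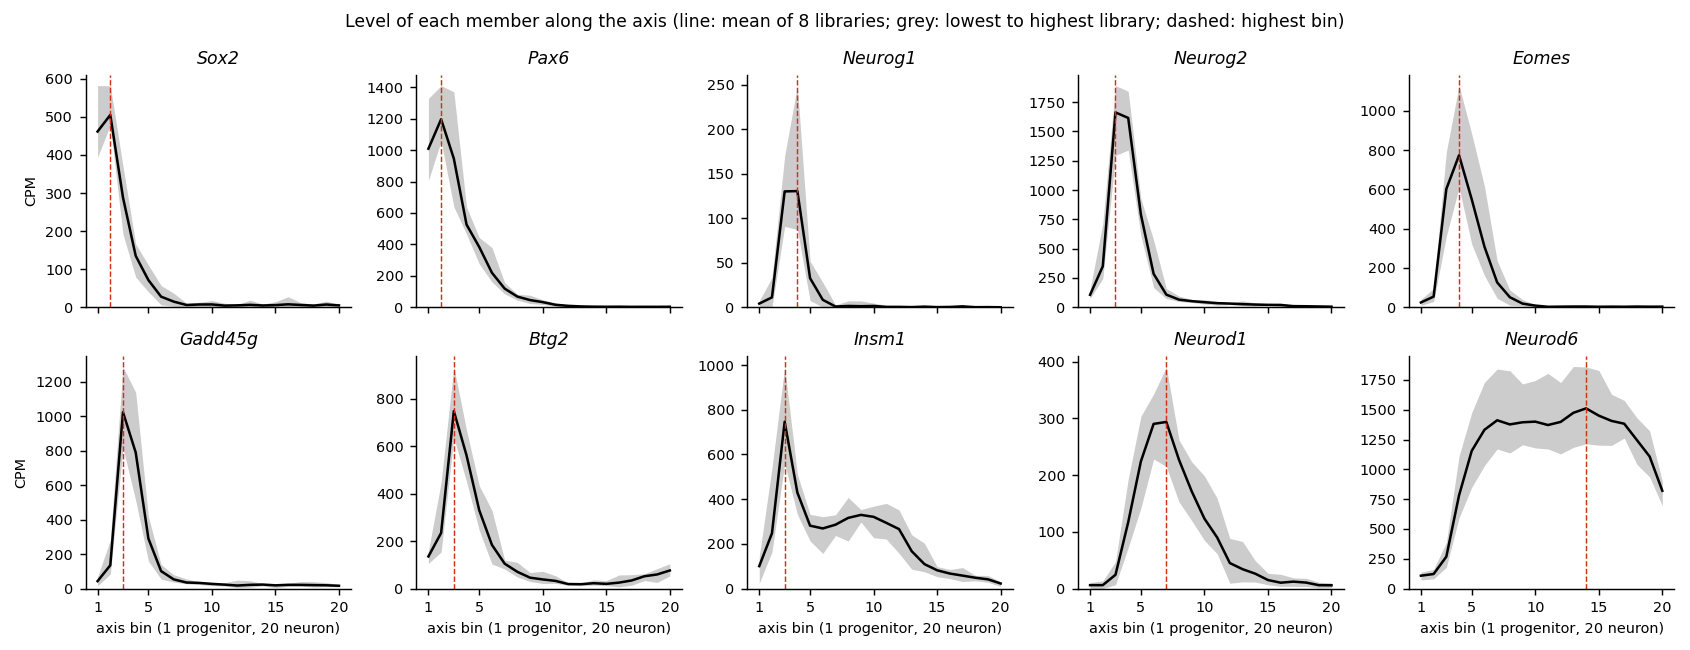
Level of each member in CPM (vertical axes, linear from 0) along the 20 bins from progenitor (bin 1) to neuron (bin 20), with the mean of 8 libraries (line), the range from the lowest to the highest library (grey) and the highest bin (dashed). Pax6 and Sox2 decline after bin 2, Neurog2, Gadd45g, Btg2 and Insm1 peak in bin 3, Neurog1 and Eomes in bin 4, Neurod1 in bin 7 and Neurod6 in bin 14.

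The order was Sox2 (11.9 ± 1.11%), Pax6 (13.2 ± 0.590%), Neurog1 (16.5 ± 0.944%), Neurog2 (19.0 ± 0.605%), Eomes (20.3 ± 0.643%), Gadd45g (21.1 ± 0.942%), Btg2 (25.9 ± 2.20%), Insm1 (35.2 ± 0.935%), Neurod1 (36.1 ± 1.56%) and Neurod6 (56.5 ± 1.20%). Neurog1 preceded Neurog2, and Neurog2 preceded Eomes, in 8 of 8 libraries, the latter by 1.27 ± 0.381 percentage points. This mean also weighs the low levels in neurons, where Neurog2 was at 43.2 CPM and Neurog1 at 1.46 CPM in bin 10. By the highest bin the Neurogenins did not follow that order, since Neurog2 was highest in bin 3 and Neurog1 was at 130 and 131 CPM in bins 3 and 4. A total of 6 of the 9 steps between neighbors held in 8 of 8 libraries. Sox2 preceded Pax6 in 7, Eomes preceded Gadd45g in 6 and Insm1 preceded Neurod1 in 5 of 8 libraries, so the order of these neighbors differed between libraries. The gap was 1.32 ± 1.14 percentage points for Sox2 and Pax6, 0.771 ± 0.984 for Eomes and Gadd45g and 0.884 ± 1.89 for Insm1 and Neurod1.

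**Figure D3:**
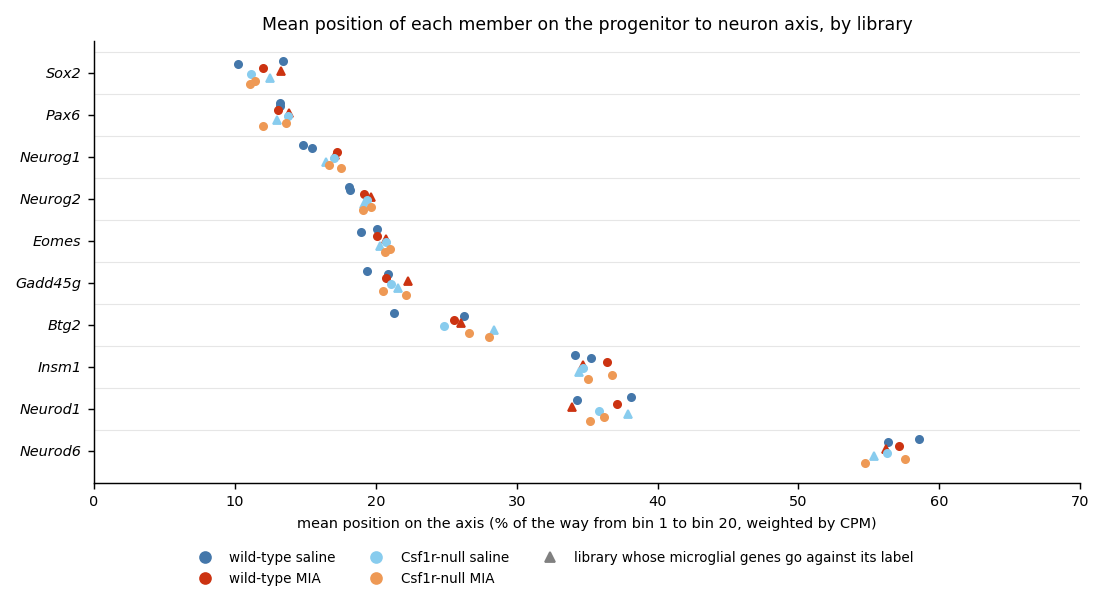
Mean position of each member, weighted by CPM, in percent of the way from bin 1 to bin 20 (horizontal axis), 1 point for each of the 8 libraries, colored by group, with triangles for the 2 libraries whose microglial genes go against their labels. Means run from 11.9% for Sox2 to 56.5% for Neurod6, and both Neurogenins and Eomes lie earliest in the wild-type saline libraries.

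From bin 2 to bin 3, 6 members rose steeply, each higher in bin 3 in 8 of 8 libraries. The classes changed at the same step. Bin 2 held only AP (1122 nuclei) and dividing AP (779), whereas bin 3 held 372 IP and 212 dividing IP nuclei among 1901. The part of this change of classes in the rises was not tested. Neurog1 rose from 11.1 to 130 CPM (11.7-fold), Eomes from 54.4 ± 27.0 to 602 ± 172 CPM (11.1-fold) and Gadd45g from 135 ± 65.1 to 1024 ± 159 CPM (7.59-fold). Neurog2 rose from 350 ± 158 to 1662 ± 214 CPM (4.76-fold), Btg2 3.19-fold and Insm1 3.02-fold. The rise began earlier for some, since from bin 1 to bin 2 Neurog2 had gone from 106 ± 30.2 to 350 ± 158 CPM (3.29-fold) and Insm1 from 100.3 ± 36.1 to 247 ± 121 CPM (2.46-fold), also in 8 of 8 libraries. Of these 6, Neurog2, Eomes and Gadd45g had a TATA match near their start, Neurog1 and Btg2 had none before their RefSeq start, and Insm1 was not searched. Neurod1, which also had the match, peaked in bin 7 at 294 ± 55.5 CPM. A link between the match and these profiles was not tested. Btg2 and Insm1 lay late for genes that peaked in bin 3. Insm1 fell from 746 ± 129 CPM in bin 3 to 275 ± 42.1 CPM in bins 5 and 6, and stood at 322 ± 33.7 CPM in bins 8 to 10 (higher in 7 of 8 libraries), and it was still at 266 ± 75.0 CPM in bin 12. Btg2 fell from 749 ± 105 CPM in bin 3 to 19.9 ± 3.50 CPM in bins 12 to 14. It was at 67.8 ± 18.3 CPM in bins 19 and 20 (higher in 8 of 8 libraries), where 89.5% and 99.1% of nuclei were CThPN. Neurod6 stayed at 1416 ± 211 CPM over bins 7 to 17 and was at 820 ± 68.7 CPM in bin 20, lower in 8 of 8 libraries. These bins were chosen after the profiles were seen.

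Among 9740 genes with at least 20 CPM in a bin, the profiles most like that of Neurog2 over the 20 bins were those of Zc3h12c (Pearson r = 0.982), Mthfd2l (0.981) and 3110062M04Rik (0.978). The closest to Eomes were Btbd17 (0.983), Rab8b (0.981) and Zfand6 (0.975). Neurod1 was most like Wbp1 (0.986), Slc17a6 (0.986), the vesicular glutamate transporter gene, and Snrnp70 (0.985), and Neurod6 was most like Atat1 (0.991), Npdc1 (0.991) and Plppr3 (0.988). The bins share libraries and depth, so these values describe likeness and carry no p.

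Other factors of the same families were spread along the same axis. Among 9 related bHLH factors and partners, Tcf4, an E protein that pairs with proneural factors, was highest in MN/IP (3932 ± 444 CPM), and Neurod2 in MN (969 ± 112 CPM). Among the 4 Id genes, whose proteins bind E proteins and hold back bHLH factors, Id4 was highest in AP (792 ± 108 CPM) with a position of 12.8 ± 0.840%, beside Sox2 and Pax6, and Id2 was highest in CPN/MN (666 ± 56.8 CPM) with a position of 62.2 ± 1.15%. Among 8 Sox and homeobox factors, Sox11 was highest in MN/IP (4614 ± 894 CPM) and Sox4 in CThPN/SCPN (1866 ± 389 CPM). For Tcf4, Id2, Sox11 and Sox4 the class of highest mean was not the highest in every library, whereas for Neurod2 and Id4 it was. In Csf1r-null saline 1, for example, Tcf4 was at 4459 CPM in IN and 4121 CPM in MN/IP.

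The study's design asks whether MIA changed expression in each class and whether this depended on microglia. For the 10 members across 10 classes, 80 of 100 gene and class pairs passed the filter on low counts. The main test was edgeR's quasi-likelihood test with Benjamini-Hochberg adjustment and without the replicate number as a block. By it, MIA against saline in wild type called 0 of the 80 pairs (lowest edgeR adjusted p = 0.553), where 0% of 92590 pairs of any gene and class were called. At an unadjusted p under 0.05 there were 3 of 80 (3.75%), against 6.08% of all pairs, namely Eomes in dividing AP and Neurog1 in dividing IP and IP. The 2 libraries of one treatment lay entirely above or below those of the other in 26 of 80 pairs, against 37.2% of all pairs. MIA against saline in Csf1r-null embryos called 0 of 80 (0% of all pairs), with 1 of 80 at an unadjusted p under 0.05 (Insm1 in dividing AP, log2 -0.56, against 1.57% of all) and 22 of 80 not overlapping (23.8% of all). DESeq2 called 0 members in either comparison. With the replicate number as a block, edgeR called Eomes in dividing AP in wild type, among 145 of the 9046 genes tested in that class. The blocked counts over all genes and classes are given below, with the dependence on processing. The share of members not overlapping was thus below that of all pairs in wild type and slightly above it in Csf1r-null embryos.

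In the class where each member was highest, no treatment effect was called. Only Neurog1 in IP of wild-type embryos had an unadjusted edgeR p under 0.05, with an interval of 2 SE from 0.08 to 1.30. In wild-type embryos the log2 differences ran from -0.30 for Neurod6 in CPN/MN (SE 0.24) to 0.69 for Neurog1 in IP (SE 0.30, edgeR adjusted p = 0.990), with a median of 0.08 over the 10 members. Gadd45g (0.38, SE 0.29), Eomes (0.17, SE 0.24) and Neurog2 (0.05, SE 0.21), all in IP, did not pass the test, nor did Pax6 (0.10) and Sox2 (-0.18) in dividing AP, Insm1 (0.10) in dividing IP, Btg2 (0.04) in IP or Neurod1 (-0.04) in MN/IP. In Csf1r-null embryos they ran from -0.30 for Gadd45g (SE 0.29) to 0.25 for Neurod1 (SE 0.20), with a median of 0.01. Intervals of 2 SE reached at most 1.30 on the log2 scale in wild type and 0.89 in Csf1r-null embryos. With 2 libraries per group, a change of a member up to the bound of its own interval was not excluded.

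**Figure D4:**
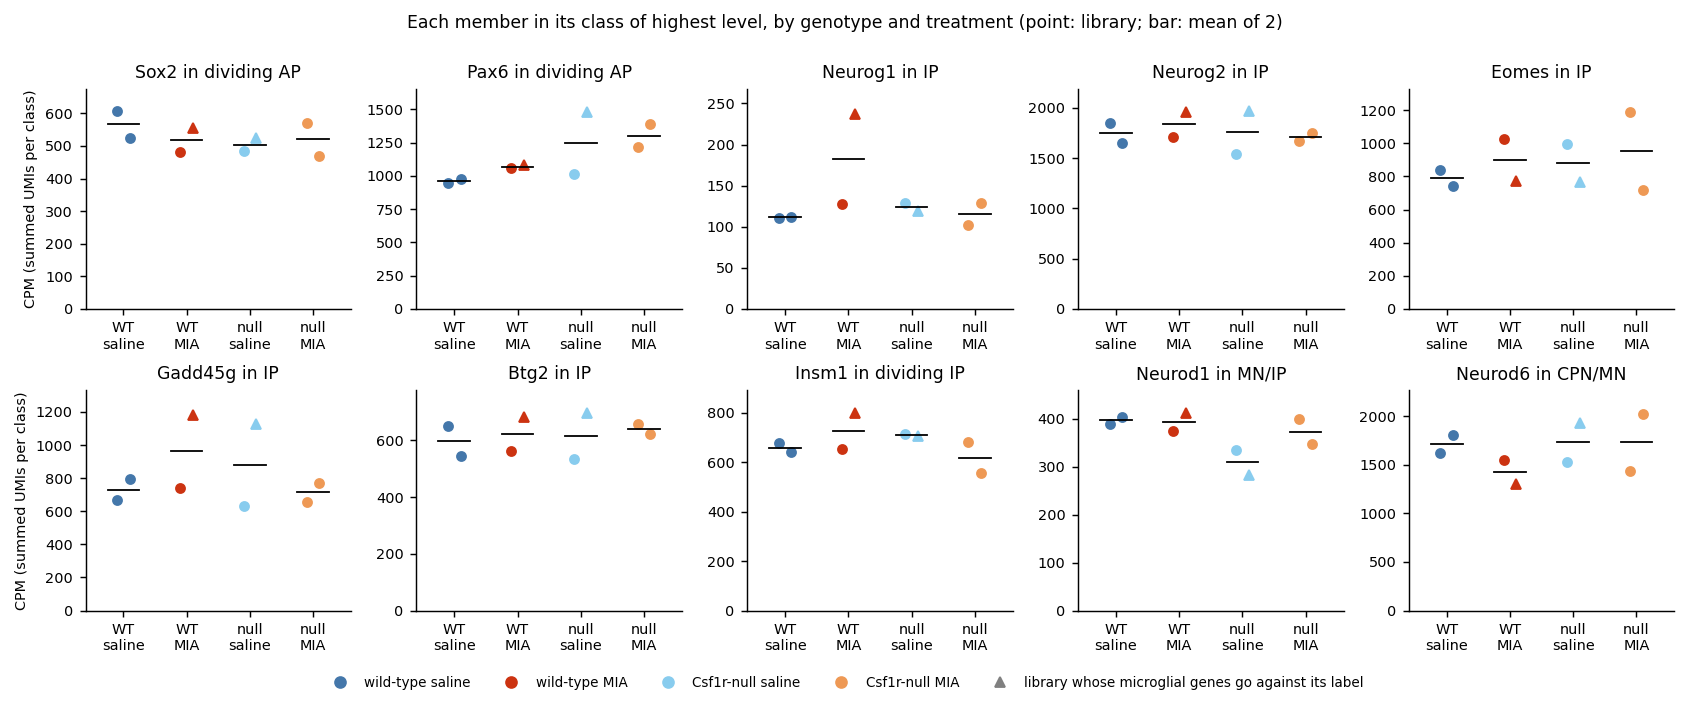
Level of each member in CPM, on linear axes from 0, in the class where it is highest, by genotype and treatment (points, libraries; bars, mean of 2; triangles, the 2 libraries whose microglial genes go against their labels). For Neurog1 only the library labelled wild-type MIA 2 stands apart, at 237 CPM.

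The Neurog1 value in IP rested on 1 library. Its level in IP was 111 and 112 CPM in wild-type saline, 128 and 237 CPM in wild-type MIA, 129 and 119 CPM in Csf1r-null saline and 102 and 128 CPM in Csf1r-null MIA (41 to 150 UMIs per library). Only the library labelled wild-type MIA 2, one of the pair that went against its labels, was high, and without it the log2 difference was 0.16 (0.62 without wild-type saline 1). In dividing IP both wild-type MIA libraries lay above both saline libraries, at 92.3 and 122 CPM against 53.7 and 51.6 CPM (9 to 33 UMIs per library). The log2 difference there was 0.96 (SE 0.39, edgeR adjusted p = 0.553), 0.95 without wild-type saline 1 and 0.74 without wild-type MIA 2, and it did not pass the threshold. In AP, Neurog1 was at 28.8 and 32.3 CPM in wild-type saline and 48.0 and 44.5 CPM in wild-type MIA (log2 0.53, SE 0.32, edgeR adjusted p = 0.673, and log2 0.44 without wild-type saline 1). Gadd45g in IP was also high in both of those libraries, at 1182 CPM in wild-type MIA 2 and 1124 CPM in Csf1r-null saline 2 against 630 to 793 CPM in the others. Without both libraries its difference was -0.02 in wild type and 0.22 in Csf1r-null embryos. Neurog2 in IP was at 1849 and 1654 CPM in wild-type saline, 1713 and 1964 in wild-type MIA, 1545 and 1972 in Csf1r-null saline and 1674 and 1750 in Csf1r-null MIA, and all groups overlapped. Eomes in IP was at 836 and 743, 1025 and 769, 995 and 767, and 1186 and 719 CPM in the same order, higher in replicate 1 than in replicate 2 of every group. Replicates 1 and 2 were counted with different versions of Cell Ranger and sets of listed genes.

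Eomes in dividing AP was the one member pair that any fit called between treatments. Its level was 37.9 and 26.1 CPM in wild-type saline, 90.5 and 74.2 CPM in wild-type MIA, 91.5 and 54.4 CPM in Csf1r-null saline and 59.0 and 36.3 CPM in Csf1r-null MIA, on 13 to 74 UMIs per library. Both wild-type saline libraries lay below both wild-type MIA and both Csf1r-null saline libraries. For MIA against saline in wild type the log2 difference was 1.31 (SE 0.32, edgeR adjusted p = 0.576), which did not pass the threshold, and 8.01% of all genes in dividing AP had an unadjusted p under 0.05 in this comparison. With the replicate number as a block, the adjusted p was 0.0142, 1 of the 80 member pairs called, where 1.6% of the genes tested in dividing AP were called. The difference was 1.52 without wild-type saline 1 and 1.41 without both libraries that went against their labels. It was 0.67 when doublets were kept. The nuclei were then clustered anew, and dividing AP held 1421 nuclei rather than 2034, so that value is not for the same class. Dividing IP then consisted of a cluster of 955 and a cluster of 276 nuclei, rather than 830 nuclei. The cluster of 276 had Cenpe, Mki67 and Cenpf among its top genes, as did the smaller cluster of dividing AP, and also Eomes and Neurog2. The part of nuclei that changed class in the lower value was not tested. The difference between genotypes in the MIA response was -1.92 (SE 0.46, edgeR adjusted p = 0.997, and 0.0703 with the block). The level in wild-type saline enters both this value and the comparison of Csf1r-null with wild type after saline (1.18, SE 0.34, edgeR adjusted p = 0.417).

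**Figure D5:**
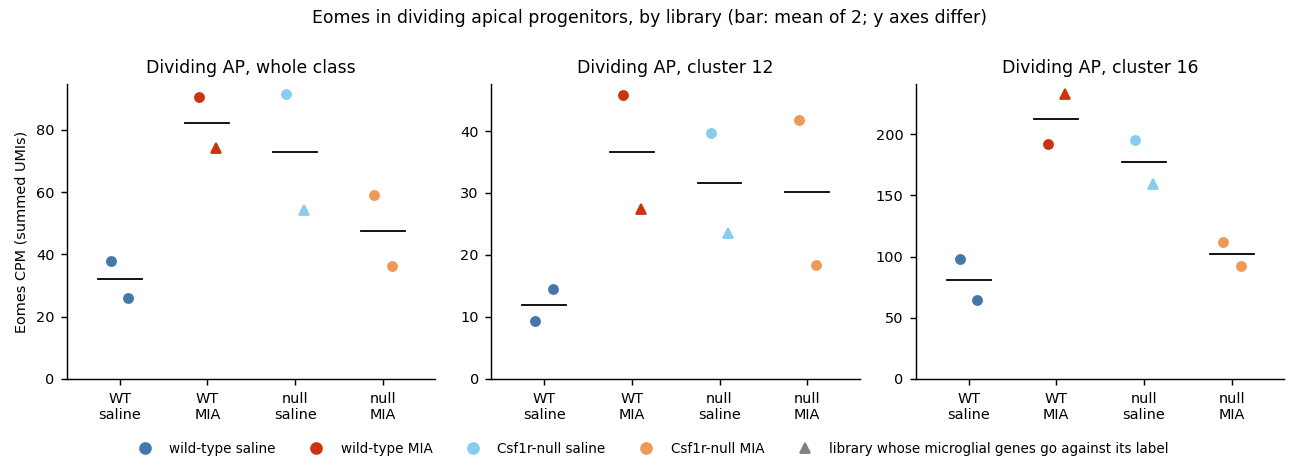
Eomes in dividing AP in CPM on linear axes from 0 that differ between panels, by library (points, or triangles for the 2 libraries whose microglial genes go against their labels; bars, mean of 2), in the whole class and in each of its 2 clusters. In the whole class the wild-type saline libraries are at 37.9 and 26.1 CPM and the wild-type MIA libraries at 90.5 and 74.2 CPM.

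Dividing AP held 2 clusters that differed in Eomes and in other members. Eomes was at 27.6 ± 13.6 CPM in the larger (cluster 12, 1336 nuclei) and 143 ± 60.0 CPM in the smaller (cluster 16, 698 nuclei). In the same order Neurog2 was at 111 ± 24.4 and 483 ± 79.3 CPM, Insm1 at 113 ± 20.6 and 564 ± 90.9 CPM and Neurod6 at 98.8 ± 28.1 and 583 ± 210 CPM. Pax6 was similar, at 1136 ± 186 and 1180 ± 246 CPM. For the smaller cluster the marker list of IP scored second (1.42, after 3.24 for AP). On the axis, most dividing AP nuclei lay in bins 1 and 2 (763 and 779). A further 39 lay in bin 4 and 75 in bin 5, with some as late as bin 10. AP had 62 nuclei in bin 4 and 0 in bin 5. Whether dividing AP includes nuclei like dividing IP was not tested. The smaller cluster made up 43.1% and 35.8% of the class in wild-type saline and 36.5% and 30.5% in wild-type MIA. Within the smaller cluster Eomes was at 97.8 and 64.5 CPM in wild-type saline and 192 and 233 CPM in wild-type MIA. The part of the clusters' shares in the difference of the whole class was not tested.

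The difference between genotypes in the MIA response called 0 of 80 member pairs (0% of all pairs), with 4 of 80 at an unadjusted p under 0.05 (2.91% of all). These were Eomes in dividing AP, Neurog1 in AP (-1.23, and -1.15 without wild-type saline 1), Sox2 in IP (-0.77) and Neurod1 in CPN/MN (1.13). Csf1r-null against wild type called 0 of 80 pairs after saline (0% of all pairs) and 0 of 80 after MIA (0% of all pairs). At an unadjusted p under 0.05 there were 6 of 80 after saline (5.58% of all) and 3 of 80 after MIA (1.43% of all), and 26 of 80 (35.1% of all) and 21 of 80 (23.5% of all) did not overlap. After saline the 6 were Neurod1 in CPN/MN (-1.02), IP (-0.75) and MN (-0.53), Insm1 in IN (-1.21), Neurod6 in IN (0.87) and Eomes in dividing AP (1.18). After MIA the 3 were Neurog2 in CPN/MN (-1.02), Neurog1 in IP (-0.65) and Eomes in dividing AP (-0.73), whose sign was opposite to that after saline. The value for Neurog1 in IP ran from -1.05 to -0.12 without single libraries. None passed the adjusted threshold.

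Neurod6 in IN was the one other member pair that any fit called. Its level was 70.9 and 119 CPM in wild-type saline and 182 and 159 CPM in Csf1r-null saline, with 104 and 108 CPM in wild-type MIA and 97.7 and 150 CPM in Csf1r-null MIA. The log2 difference between genotypes after saline was 0.87 (SE 0.30, edgeR adjusted p = 0.512). With the replicate block it was 0.90 (adjusted p = 0.0431), where 1.2% of the genes tested in IN were called. It was 0.48 without wild-type saline 1 and 1.29 without wild-type saline 2. IN should lack Neurod6, and its level there is the background against which AP was read above. The part of free RNA in this difference was not tested.

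Among the related factors, 62 pairs of bHLH factors, 22 of Id genes and 56 of Sox and homeobox factors were tested, and 0 of each were called higher and 0 lower in every one of the 5 comparisons (0% of all pairs). Over the 62 bHLH pairs the median log2 difference of MIA against saline in wild type was 0.12, against -0.04 over the Id pairs and 0.06 over the Sox and homeobox pairs, and medians over all genes of a class lay between -0.0007 and 0.03. With the replicate block, Bhlhe22 in dividing AP differed between genotypes after saline (log2 2.08, edgeR adjusted p = 0.0434), where 1.08% of the genes tested in dividing AP were called. Without the block it was not called (2.07, edgeR adjusted p = 0.417).

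Along the axis, the Neurogenins and Eomes stood earliest in wild-type saline. Neurog2 was at 18.1% and 18.1% in wild-type saline, 19.2% and 19.6% in wild-type MIA, 19.4% and 19.2% in Csf1r-null saline and 19.7% and 19.1% in Csf1r-null MIA. Neurog1 was at 14.8% and 15.46%, 17.2% and 17.1%, 17.0% and 16.5%, and 16.7% and 17.5% in the same order. For both genes the wild-type saline libraries lay below all 6 others. Eomes was at 20.09% and 18.9% in wild-type saline, 20.12% and 20.7% in wild-type MIA, 20.7% and 20.3% in Csf1r-null saline and 21.0% and 20.7% in Csf1r-null MIA, so that it did the same by a narrow margin. These were 3 of the 10 members, against 3.26% of the 9737 genes with at least 20 CPM in a bin and a UMI in every library, which are the genes of the shares that follow. This pattern was chosen after the positions were seen, and the 3 genes were measured in overlapping sets of nuclei, so the share is a description. Positions did not overlap between treatments in 3 of 10 members in wild type (30.8% of all genes) and in 1 of 10 in Csf1r-null embryos (30.2% of all genes). Between genotypes they did not overlap in 5 of 10 members after saline (32.6% of all genes), where 4 lay later in Csf1r-null embryos (14.3% of all genes) and Neurod6 lay earlier (18.4% of all genes), and in 2 of 10 after MIA (28.3% of all genes). The wild-type saline libraries serve as controls in both comparisons, and 2 libraries against 2 allow no exact test to reach 0.05.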

How the data were processed

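Single-nucleus libraries were prepared from sorted nuclei with 10x Genomics 3′ v3.1 chemistry. The authors deposited raw UMI counts per gene and barcode, made with Cell Ranger on mm10. The file headers name version 3.1.0 for replicate 1 (31053 genes, all barcodes including empty droplets) and version 6.0.1 for replicate 2 (32285 genes, called barcodes only). The submitters' processing notes name 3.1.0. Whether intronic reads were counted is not given in the sources used here. Purified microglia from the same series were not used here.

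A barcode was kept as a nucleus from 500 UMIs and 200 genes upward (43456 nuclei), and the 30406 genes in both lists were joined. Each pair of libraries shared 0 to 14 barcodes. Doublets were treated by removing the highest Scrublet scores in each library, at 0.8% per 1000 nuclei (1917 nuclei), because the automatic threshold marked 0 to 3.05%. Nuclei were clustered with scanpy 1.11.5 and leidenalg 0.10.2 (2000 variable genes, 30 components, 20 neighbors, resolution 1), leaving out the members, the related factors and Csf1r. Clusters were named by marker lists, by a scoring rule set after the clusters were seen, so names may differ from those of the study. Levels are CPM of summed counts. Summed counts per class and library were tested in R 4.3.3 with edgeR 4.0.16 (TMM, filterByExpr, quasi-likelihood, 4 groups in 1 model, Benjamini-Hochberg within comparison and class at 0.05), in the 10 classes with at least 200 nuclei and at least 10 in every library, and the script was tested on simulated data. DESeq2 1.42.0 was an alternative. Intervals are 2 SE on each side. The same replicate numbers paired the libraries, since 60 correlations of same-numbered deviations from group means ranged from 0.199 to 0.598, and the number coincides with the software version and gene list. Blocked values are therefore given where they change a call.

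The 10 members were all named, in full in the class of highest level, and elsewhere where a fit called them or, after values were seen, where an unadjusted p or a count needed naming. The related factors named were those called by a fit or the 1 or 2 of highest level in each list. The result of 1 related factor is not reported here. The members and lists were chosen with earlier results of these data known. Promoter sequences are from RefSeq (GRCm38.p6) and gene positions from GENCODE M21.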

Additional observations from a re-analysis of the deposited data

Results flagged for a closer look

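Levels in the highest class and positions on the axis were examined for each of the 10 members over the 8 libraries, 20 values in all, and 3 had 1 library far from the rest by Dixon's criterion at 95%, where chance gives about 1 in 20. Neurog1 in IP was at 237 CPM in the library labelled wild-type MIA 2, against 102 to 129 CPM in the other libraries. That library is 1 of the 2 whose microglial genes go against their labels. The Pax6 position was 12% in Csf1r-null MIA 2, earlier than in the other libraries, and the Eomes position was 18.9% in wild-type saline 2, where the mean over libraries was 20.3%. The part of depth, dissection or labelling in these values was not tested.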

How the results depend on the processing

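The highest class held for all 10 members at a minimum of 1000 UMIs, without each library and without both libraries that went against their labels. It also held with doublets kept, where the nuclei were clustered anew. At resolution 0.5 there was no separate AP, IP, dividing IP, CPN/MN or CThPN/SCPN, so no value was had for those. All 9 steps of the order held under the alternatives, except that at 1000 UMIs Neurod1 (33.9%) preceded Insm1 (34.9%). Over all genes and classes, where the edgeR test called 0 in each comparison, MIA against saline in wild type called 58 with DESeq2, 178 with no filter on low counts, 462 with the replicate block, 1 without both libraries that went against their labels and 0 to 14 without single libraries (14 without wild-type saline 2). MIA against saline in Csf1r-null embryos called 14 with no filter, 2 with the block and 0 to 1 without single libraries (1 without Csf1r-null saline 2), and the difference between genotypes 39, 6 and, without both libraries, 1. Csf1r-null against wild type called 48 with DESeq2, 151 with no filter, 273 with the block, 2 at 1000 UMIs and 0 to 5 without single libraries after saline (5 without wild-type saline 2), and after MIA 41 with no filter, 12 with the block and 2 without both libraries. Of the member pairs, the block called 1 in wild type and 1 after saline, Eomes in dividing AP and Neurod6 in IN, and no other alternative called any. The cause of these changes was not tested.

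No direction of a member in its highest class was stable where its estimate was near 0, and none of these was called in any fit. Without both libraries, MIA against saline in wild type was -0.12 for Btg2, -0.016 for Gadd45g, -0.071 for Insm1 and -0.068 for Neurog2 on the log2 scale, and in Csf1r-null embryos it was -0.040 for Eomes, 0.22 for Gadd45g and 0.18 for Neurog2. At 1000 UMIs it was 0.15 for Neurog1 and 0.068 for Neurog2 in Csf1r-null embryos. With doublets kept it was -0.0081 for Btg2 and -0.0091 for Pax6 in Csf1r-null embryos. Neurod6 in Csf1r-null embryos was -0.011 with DESeq2 and with its size factors, -0.0035 with no filter and -0.0099 with the block. Without single libraries, the values in wild type ran from -0.12 to 0.20 for Btg2, -0.031 to 0.34 for Eomes, -0.014 to 0.70 for Gadd45g, -0.070 to 0.27 for Insm1, -0.15 to 0.061 for Neurod1, -0.066 to 0.17 for Neurog2 and -0.0077 to 0.17 for Pax6. In Csf1r-null embryos they ran from -0.15 to 0.30 for Btg2, -0.25 to 0.38 for Eomes, -0.68 to 0.22 for Gadd45g, -0.35 to 0.29 for Neurod6, -0.34 to 0.091 for Neurog1, -0.23 to 0.19 for Neurog2, -0.24 to 0.40 for Pax6 and -0.069 to 0.14 for Sox2. Among the values named, Eomes in dividing AP rests on 13 to 74 UMIs per library and Neurog1 in dividing IP on 6 to 33, which limits their precision.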
